A study of Mus musculus with 6 samples.

Results

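The 10 genes of the integrated stress response and its mitochondrial branch that were examined in the hearts of *Clk4*-cKO mice are *Atf4*, *Atf5*, *Ddit3*, *Trib3*, *Asns*, *Mthfd2*, *Phgdh*, *Psat1*, *Fgf21* and *Gdf15*. They were taken by symbol from the annotation of the array, which carries 17 probes for them among 56605 different non-control probes. All 10 genes had a probe. Of the 17 probes, 13 (for 9 genes) were bright enough to test, which asks that 1 group or both have all 3 arrays well above background, as do 22998 probes of 13747 named genes on the whole array. *Fgf21* was not tested.

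All 6 mice were male C57BL/6J *Clk4*-cKO mice, which carry *Clk4* fl/fl and the αMHC-MerCreMer transgene, a tamoxifen-inducible Cre recombinase restricted to cardiomyocytes. CLK4 is a dual-specificity kinase best known for phosphorylating splicing factors, and NEXN (nexilin) is an actin-binding protein of the cardiac Z-disc and junctional membrane. At 5 weeks of age 3 mice had received an intravenous AAV9 vector that expresses NEXN-WT from a CMV promoter, and the other 3 the same vector with NEXN-S437E, in which glutamate stands for a serine to mimic its phosphorylation. Tamoxifen was injected when the mice were between 6 and 8 weeks old. Neither a CMV promoter nor RNA of whole myocardium separates cardiomyocytes from other cells, and no heart with intact *Clk4* or without NEXN vector was compared here, so every difference is between NEXN-S437E and NEXN-WT in hearts that all carry the deletion. Each heart was measured on its own 1-colour Agilent array, all on 1 slide.

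The integrated stress response starts when kinases phosphorylate the initiation factor eIF2, which lowers protein synthesis but favours translation of ATF4. ATF4 then switches on genes for amino acid synthesis and transport, and in heart and muscle with damaged mitochondria the same programme includes the folate enzyme MTHFD2 and the secreted hormones FGF21 and GDF15. Because ATF4 is controlled largely at translation, its mRNA level need not follow the activity of the protein.

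With NEXN-S437E, *Mthfd2*, the mitochondrial methylenetetrahydrofolate dehydrogenase, and *Gdf15*, a stress-induced cytokine of the TGF-β family, were lower than with NEXN-WT. *Mthfd2* was well above background on all NEXN-WT arrays and on 0 and 1 of the 3 NEXN-S437E arrays on its 2 probes, so the size of its decrease is not measured. With dim arrays set to the lowest signal that counted as well above background, the probe that no NEXN-S437E array measured was 3.31-fold lower. The single *Gdf15* probe, measured on all arrays, fell by 2.41 on the log2 scale (standard error 0.576). The transcription factors *Atf4*, *Atf5* and *Ddit3*, the pseudokinase *Trib3* and the serine enzyme *Psat1* differed by between -0.33 and 0.17. *Phgdh* and *Asns* lay between, at -0.79 and -0.47.

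Values are log2 processed signals relative to the 75th percentile of the array, so 0 marks that percentile (75% of spots are dimmer), and differences are NEXN-S437E minus NEXN-WT. A probe was called at the study's thresholds, a change of 2-fold or more with an unadjusted p below 0.05 in limma. Of the 13 tested probes, 3 were called lower (those of *Mthfd2* and *Gdf15*) and 0 higher, where 1.81% of all tested probes were called lower and 0.717% higher. By gene, 2 of 9 were called lower, against 2.45% of all named genes, and 0 higher, against 1.00%. At a Benjamini-Hochberg adjusted p below 0.05 over all tested probes, 1 of the 13 passed, an *Mthfd2* probe, against 0.135% of all probes that passed in this direction. At an unadjusted p below 0.05 alone, 5 of the 13 were lower, against 6.83% of all probes, and 0 were higher. With quantile normalization, the percentile over detected probes, the deposited values or normexp it was 8 lower, against between 6.75% and 8.57% of all probes. Both *Mthfd2* probes entered the test only through the NEXN-WT group, where they are brighter, and with the filter on all 6 arrays 11 probes remained, of which 1 (*Gdf15*) was called lower, against 1.17% of all probes under that filter. Of these 11, 0 passed the adjusted p in limma and 3 were lower at an unadjusted p below 0.05, against 6.11%. In 7 of the 13 all NEXN-S437E arrays were below all NEXN-WT arrays, against 9.31% of all probes. The median difference of the 13 was -0.26, against 0.08 for all tested probes, and 11 of the 13 were below 0, against 39.7% of all probes. The 10 genes were chosen with earlier results of these arrays known, so these counts describe the genes and do not test them as a set.

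**Figure D1:**
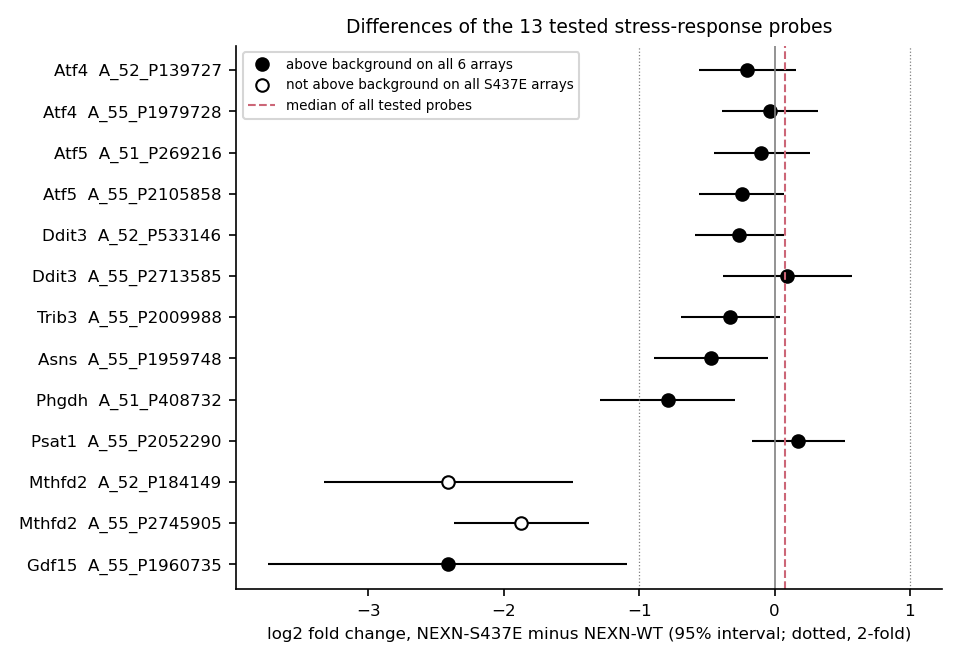
Difference of each tested stress-response probe between NEXN-S437E and NEXN-WT hearts (log2 fold change, point) with its 95% interval from limma (line), 3 arrays per group. Open points, those of *Mthfd2*, are values as read of probes not well above background on all NEXN-S437E arrays. The probes of *Mthfd2* and *Gdf15* lie beyond the 2-fold mark at -1, and those of the transcription factors lie between -0.26 and 0.09.

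The stretches in front of the transcription starts show where the genes differ in an element that ATF4 is known to bind. The core of the C/EBP-ATF response element, TGATGNAA, was searched on both strands in the 250 bases before each start in RefSeq (GRCm38.p6), with no other motif searched. All 10 genes matched the table by symbol, with 13 windows. The element was in 2 of these windows, 1 of *Asns* and 1 of *Fgf21*, and in 3.45% of the 32851 windows of all genes. In *Asns* (chr6:7693210-7693459, minus strand) it begins 23 bases before the start and reads in the direction of the gene, and in *Fgf21* (chr7:45615491-45615740, minus strand) it begins 139 bases before the start and reads in the opposite direction. The windows of *Mthfd2* (chr6:83317605-83317854, minus strand) and of the more upstream start of *Gdf15* (chr8:70632457-70632706, minus strand), the genes that were called, do not hold these letters. The 4 windows are printed 5′ to 3′ along the gene, with the element in capitals.
Asns: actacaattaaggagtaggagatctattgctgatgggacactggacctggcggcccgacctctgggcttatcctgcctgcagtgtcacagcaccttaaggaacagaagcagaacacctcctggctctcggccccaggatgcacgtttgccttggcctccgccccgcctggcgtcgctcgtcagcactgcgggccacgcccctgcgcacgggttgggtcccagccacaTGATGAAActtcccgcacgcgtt
Fgf21: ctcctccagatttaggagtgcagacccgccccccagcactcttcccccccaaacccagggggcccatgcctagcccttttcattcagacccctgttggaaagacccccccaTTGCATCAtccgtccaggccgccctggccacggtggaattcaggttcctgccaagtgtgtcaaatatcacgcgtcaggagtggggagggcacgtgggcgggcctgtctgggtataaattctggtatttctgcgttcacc
Mthfd2: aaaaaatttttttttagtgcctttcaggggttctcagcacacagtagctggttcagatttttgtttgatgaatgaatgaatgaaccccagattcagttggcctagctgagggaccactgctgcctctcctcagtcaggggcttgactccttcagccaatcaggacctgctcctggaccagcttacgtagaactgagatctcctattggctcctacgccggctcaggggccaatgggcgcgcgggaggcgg
Gdf15: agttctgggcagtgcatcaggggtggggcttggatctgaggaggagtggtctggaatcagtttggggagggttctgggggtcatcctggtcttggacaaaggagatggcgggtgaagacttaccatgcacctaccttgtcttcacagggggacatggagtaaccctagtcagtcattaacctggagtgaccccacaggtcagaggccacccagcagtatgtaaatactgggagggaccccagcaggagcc

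*Mthfd2* has 2 probes on the array, at chr6:83255861-83255920 (A_55_P2745905) and chr6:83256518-83256577 (A_52_P184149) in the mm9 coordinates of the files. Probes were not placed in exons or UTRs, since no genome of that build was used. On A_55_P2745905 the NEXN-WT arrays read -1.27, -1.33 and -1.93 and the NEXN-S437E arrays -3.28, -3.63 and -3.23. As read, the groups were separated by more than the spread within either of them (SD 0.37 and 0.22, n = 3 each). The second SD is that of values not well above background, so it does not measure the spread between hearts. The probe was well above background on all 3 NEXN-WT arrays and on none of the NEXN-S437E arrays, so the size of the difference is not measured. Each dim array was given the higher of its own value and the lowest signal that counted as well above background there (the background limit). The fold was then 3.31. Some probes brighter than that limit were also not well above background, so 3.31 is not a strict lower bound. The fit on the values as read gave -1.87 with a limma adjusted p of 0.0233, which rests on NEXN-S437E values below the background limit.

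The second *Mthfd2* probe, A_52_P184149, read -1.41, -1.10 and -1.87 with NEXN-WT and -2.93, -4.14 and -4.55 with NEXN-S437E. The groups again did not overlap, and 1 of the NEXN-S437E arrays, the highest, was well above background. The values as read differed by -2.41 (limma adjusted p = 0.0794). With the dim arrays set to the lowest signal that counted as well above background, a reading added after seeing the data, the fold was 3.35. In the normalized log2 values that the authors deposited, the same probes differed by -1.92 and -2.50. These are dim probes: on the linear scale A_55_P2745905 gave processed signals of 110, 67.8 and 39.2 with NEXN-WT and 11, 12.7 and 14.7 with NEXN-S437E. With normexp background correction, which adds an offset of 50 to every signal, the differences became -0.48 and -0.55 and neither probe was called. With the slide row as a block, which compares NEXN-S437E 1 alone with the NEXN-WT arrays, they were -1.77 (adjusted p = 0.179) and -1.48 (adjusted p = 0.268).

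*Gdf15* (A_55_P1960735, chr8:73153293-73153352) read 3.76, 1.51 and 1.46 with NEXN-WT and 0.29, -0.46 and -0.33 with NEXN-S437E, well above background on all 6 arrays. The groups did not overlap, but the NEXN-WT group had a wide spread (SD 1.31, against 0.40 with NEXN-S437E), because NEXN-WT 1 was far above the other two NEXN-WT arrays. The fold change was 5.33 with a limma adjusted p of 0.135, and the unadjusted p was below 0.05. Without NEXN-WT 1 the difference was -1.66 (adjusted p = 0.0528) and the probe was still called. With the slide row as a block it was -1.96 (adjusted p = 0.50), the unadjusted p rose above 0.05 and the call was lost. That block leaves the comparison of NEXN-S437E 1 with the 3 NEXN-WT arrays, which share slide row 1, because the other two NEXN-S437E arrays are alone in row 2.

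*Fgf21*, the hormone that is best known from liver and that the stressed heart can also release, was near the detection limit. Its only probe (A_52_P235347, chr7:52869305-52869364) read -4.40, -3.46 and -3.90 with NEXN-WT and -3.51, -5.80 and -3.84 with NEXN-S437E. Only NEXN-WT 2 was well above background, the groups overlapped, and no fold or test is given. Of the secreted hormones, the groups could thus be compared for *Gdf15* alone.

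**Figure D2:**
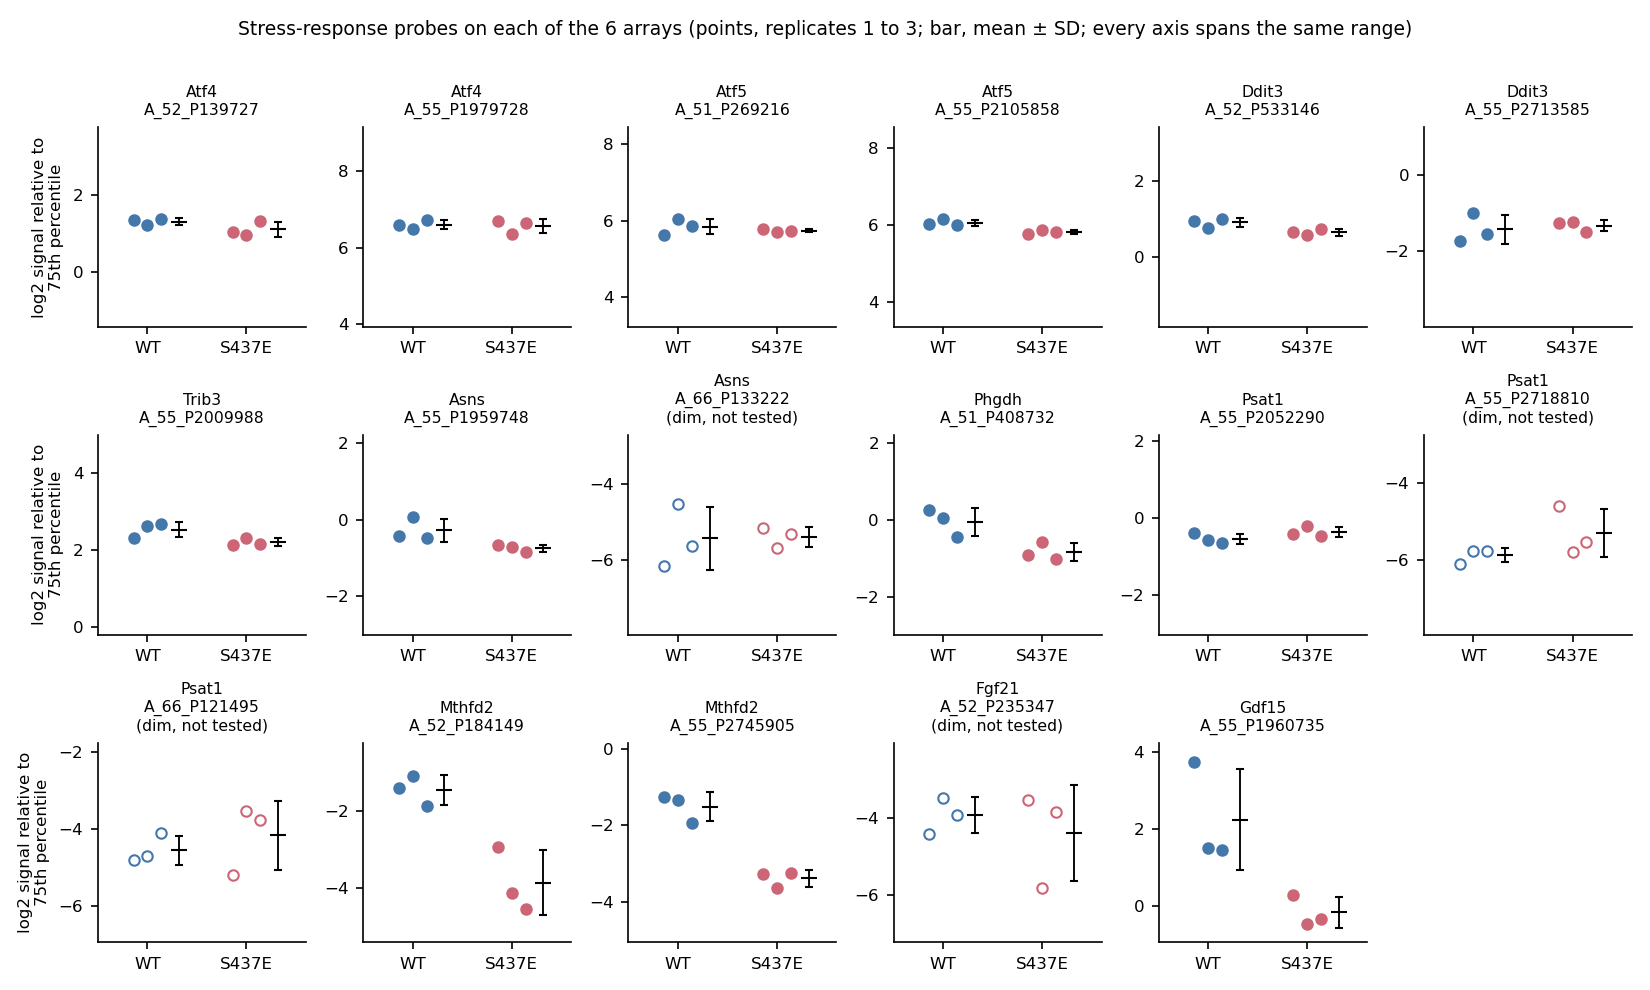
Level of each of the 17 stress-response probes on every array (log2 processed signal relative to the 75th percentile of the array; blue, NEXN-WT; red, NEXN-S437E; open points, probes not tested), with the group mean ± SD in black. The groups are clearly apart for *Gdf15*, where NEXN-WT 1 reads 3.76, and close together for *Atf4*, *Atf5* and *Ddit3*. They are also apart as read for the *Mthfd2* probes, whose NEXN-S437E values were mostly not well above background. Each panel spans the same number of log2 units, and levels of different probes cannot be compared.

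Among the amino acid enzymes, *Phgdh*, which makes the first committed step of serine synthesis, read 0.25, 0.04 and -0.44 with NEXN-WT and -0.92, -0.57 and -1.02 with NEXN-S437E (A_51_P408732, chr3:98117098-98117157). Every NEXN-S437E array was below every NEXN-WT array. The fold change was 1.73, under the 2-fold threshold, with a limma adjusted p of 0.166.

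*Asns*, the asparagine synthetase, read -0.42, 0.06 and -0.48 with NEXN-WT and -0.66, -0.72 and -0.85 with NEXN-S437E on A_55_P1959748 (chr6:7625171-7625228). The groups did not overlap, although the difference of -0.47 (95% interval -0.89 to -0.05, limma adjusted p = 0.259) was carried in part by NEXN-WT 2. Without that array it was -0.30. The other *Asns* probe was well above background on no array.

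*Psat1*, the aminotransferase that follows PHGDH in serine synthesis, did not share this direction. It read -0.39, -0.57 and -0.65 with NEXN-WT and -0.42, -0.21 and -0.46 with NEXN-S437E on A_55_P2052290 (chr19:15979622-15979681). The groups overlapped, and the difference was 0.17 with a 95% interval of -0.17 to 0.52 (limma adjusted p = 0.557). The other two *Psat1* probes were well above background on no array.

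The transcription factors were well above background on all 6 arrays and none was called. *Atf4*, the central factor of the response, read 6.59, 6.49 and 6.72 with NEXN-WT and 6.69, 6.36 and 6.64 with NEXN-S437E on its brighter probe A_55_P1979728 (chr15:80087902-80087961). The arrays of both groups were interleaved, and the difference was -0.03 with a 95% interval of -0.39 to 0.32. Its sign was positive without NEXN-WT 3, without NEXN-S437E 2 and with the slide row block. The second *Atf4* probe, A_52_P139727 (chr15:80087079-80087138), differed by -0.20 (-0.56 to 0.16) and also overlapped.

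*Atf5*, an ATF4-related factor tied to the mitochondrial unfolded protein response, differed by -0.10 (95% interval -0.45 to 0.26) on A_51_P269216 and by -0.24 (-0.56 to 0.07) on A_55_P2105858, whose coordinates are chr7:52067718-52067777 and chr7:52067627-52067686. The second probe read 6.02, 6.14 and 6.00 with NEXN-WT and 5.75, 5.86 and 5.81 with NEXN-S437E. It was lower on every NEXN-S437E array by a margin small against 2-fold (limma adjusted p = 0.380). In the deposited normalized values the same probes differed by -0.32 and -0.47.

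*Ddit3*, which encodes the pro-apoptotic factor CHOP, gave probes of opposite sign. A_52_P533146 (chr10:126732518-126732821) read 0.96, 0.76 and 1.01 with NEXN-WT and 0.65, 0.58 and 0.73 with NEXN-S437E, without overlap, a difference of -0.26 (adjusted p = 0.381). A_55_P2713585 (chr10:126731579-126731638) differed by 0.09 with overlapping groups (adjusted p = 0.829), and by -0.05 without NEXN-WT 1. *Trib3*, an inhibitor that ATF4 and CHOP induce, read 2.30, 2.61 and 2.66 with NEXN-WT and 2.12, 2.31 and 2.16 with NEXN-S437E (A_55_P2009988, chr2:152163161-152163220). NEXN-S437E 2 was just above NEXN-WT 1, and the difference was -0.33 (95% interval -0.69 to 0.04, limma adjusted p = 0.329).

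The 95% intervals of all *Atf4*, *Atf5*, *Ddit3*, *Trib3* and *Psat1* probes lay inside 2-fold in both directions. That of *Gdf15* lay wholly beyond 2-fold lower in the reported limma fit. The methods' t-test gave that probe a larger standard error (0.793 against 0.576), and with the slide row block its difference was -1.96. Whether *Mthfd2* and *Gdf15* changed by more than the transcription factors was not tested.

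**Figure D3:**
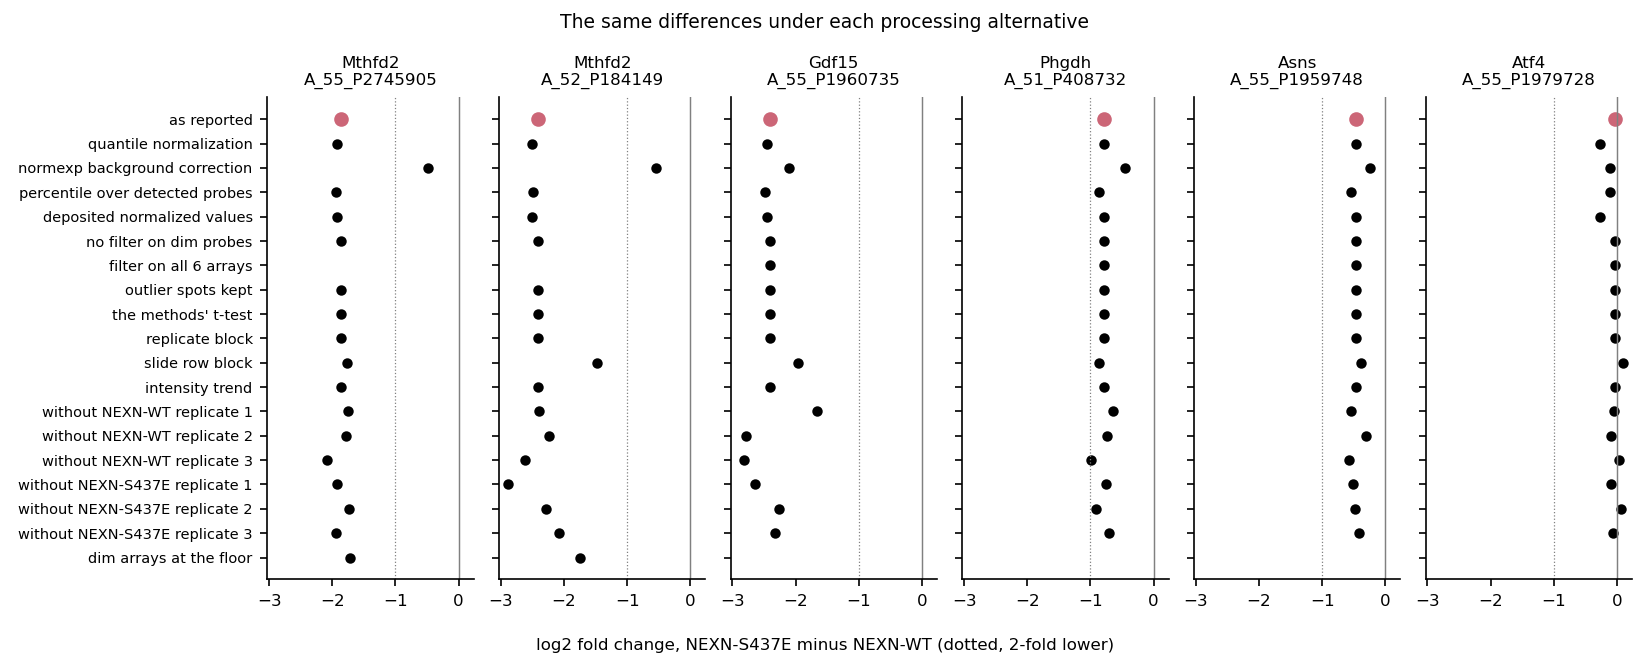
The differences of 6 stress-response probes (log2 fold change, NEXN-S437E minus NEXN-WT) as reported (red) and under each processing alternative (black; no point where an alternative gave no value for the probe). The values as read of *Mthfd2* moved to -0.48 and -0.55 with normexp, *Gdf15* to -1.66 without NEXN-WT 1, and *Atf4* stayed between -0.27 and 0.09.

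The rest of the pathway was read from 9 lists of related genes, of which 118 genes had a tested probe. Of these, 2 were called lower (*Slc43a1* and *Nupr1*) and 1 higher (*Ret*), against 2.45% and 1.00% of all named genes, so calls in the wider pathway were about as rare as on the array as a whole. At an adjusted p below 0.05 0 of them passed (limma), and at an unadjusted p below 0.05 the lists held between 0 and 7 genes higher and between 0 and 2 lower, where 12.5% of all named genes were higher and 9.49% lower by that rule.

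Upstream, the list of eIF2 kinases, eIF2 and its phosphatase had 18 tested genes and 0 called, with a median difference of 0.22 over 28 probes. The gene of smallest p was *Eif2ak3*, which encodes the endoplasmic reticulum kinase PERK and differed by -0.50 (adjusted p = 0.248), with -0.19 on its other probe. In the list of other bZIP factors and regulators, 1 of 16 genes was called. This was *Nupr1*, a stress-induced chromatin protein, which read 4.14, 2.14 and 2.74 with NEXN-WT and 1.85, 1.90 and 2.12 with NEXN-S437E (-1.05, adjusted p = 0.281). The NEXN-WT 1 array was highest, and without it the difference was -0.48 and the call was lost. The call was also lost in 10 of the other 16 alternatives. *Vldlr*, a lipoprotein receptor that ATF4 can induce, had the smallest p of that list and was higher, by 0.46 (adjusted p = 0.184) and 0.51 (adjusted p = 0.221) on its probes.

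Among the amino acid transporters, 9 of 12 genes were tested and *Slc43a1*, a carrier of large neutral amino acids, was called. It read -1.47, -1.74 and -1.60 with NEXN-WT and -2.60, -3.87 and -3.25 with NEXN-S437E. The groups did not overlap, but only 1 NEXN-S437E array was well above background, so the size is not measured. The values as read differed by -1.64 (limma adjusted p = 0.0862), and with the dim arrays at the background limit the fold was 2.81. With normexp the difference was -0.37 and the probe was not called, with the slide row block it was -1.0, and the filter on all 6 arrays leaves the probe out, since it was tested only through the NEXN-WT group. *Slc7a11*, the cystine carrier, *Slc7a5* and *Slc7a3* were not tested, being well above background on no array. The cytosolic aminoacyl-tRNA synthetases, which ATF4 raises together, had the narrowest range of the 9 lists: 13 of 13 genes were tested, 0 were called, 0 had an unadjusted p below 0.05 in either direction, and their probes lay between -0.27 (*Xpot*, the tRNA export receptor listed with them, adjusted p = 0.384) and 0.23.

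The other enzymes of serine, glycine and folate one-carbon metabolism, the pathways of PHGDH, PSAT1 and MTHFD2, gave no call in 16 tested genes, with a median of 0.13 over 21 probes. The smallest p was that of *Amt*, the aminomethyltransferase of glycine cleavage, which read higher by 0.64 (adjusted p = 0.160) on a probe tested only through the NEXN-S437E group, being well above background on 2 of the 3 NEXN-WT arrays. In the list of proline, asparagine, alanine and glutamate enzymes 0 of 12 genes were called. *Pycr1*, the mitochondrial proline synthesis enzyme, came nearest, with -2.27, -3.12 and -2.60 with NEXN-WT and -3.94, -3.15 and -3.82 with NEXN-S437E. As read, its groups did not overlap, but only 1 NEXN-S437E array was well above background. The probe was thus tested only through the NEXN-WT group, and the separation is not measured. The values as read differed by -0.97 (limma adjusted p = 0.180), and with the dim arrays at the background limit by -0.46. It was called under 6 alternatives, whereas with normexp the difference was 0.01.

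The mitochondrial chaperones and proteases, targets of the mitochondrial unfolded protein response, lay on the other side of 0. Of their 28 tested probes 26 were higher with NEXN-S437E, against 60.3% of all tested probes, with a median of 0.30 against 0.08 for all tested probes. None of the 16 genes was called. By an unadjusted p below 0.05, 7 were higher and 0 lower, against the same 12.5% higher. *Phb1*, a prohibitin of the inner membrane, had the smallest p (0.71, adjusted p = 0.198), and differed by 0.28 with the slide row block (adjusted p = 0.611). Beside this, the cardiomyocyte markers, whose cells are rich in mitochondria, had a median of 0.41. Of their probes 17 of 17 were higher, with 0 of 10 genes called. Whether the cardiomyocyte share of the RNA has a part in the chaperone differences was not tested. The endoplasmic reticulum chaperones and the targets of the other unfolded protein response arms had a median of 0.00, with 0 of 16 genes called and *Edem1*, which helps degrade misfolded glycoproteins, at -0.51 (adjusted p = 0.169).

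Of the receptors through which FGF21 and GDF15 act, the defining ones were not seen in the heart: *Klb*, the FGF21 co-receptor, and *Gfral*, the GDF15 receptor of the hindbrain, were well above background on no array. *Ret*, the signalling partner of GFRAL and of other receptors, read -2.11, -1.27 and -1.29 with NEXN-WT and -0.63, -0.25 and -0.24 with NEXN-S437E. It was called higher, by 1.18 (limma adjusted p = 0.117), without overlap. The call was lost without NEXN-WT 1 (0.91), with normexp (0.69) and with the slide row block (0.92). Of the 7 tested probes of the list 5 were lower, with a median of -0.49, and 1 of the 3 tested genes was lower at an unadjusted p below 0.05.

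**Figure D4:**
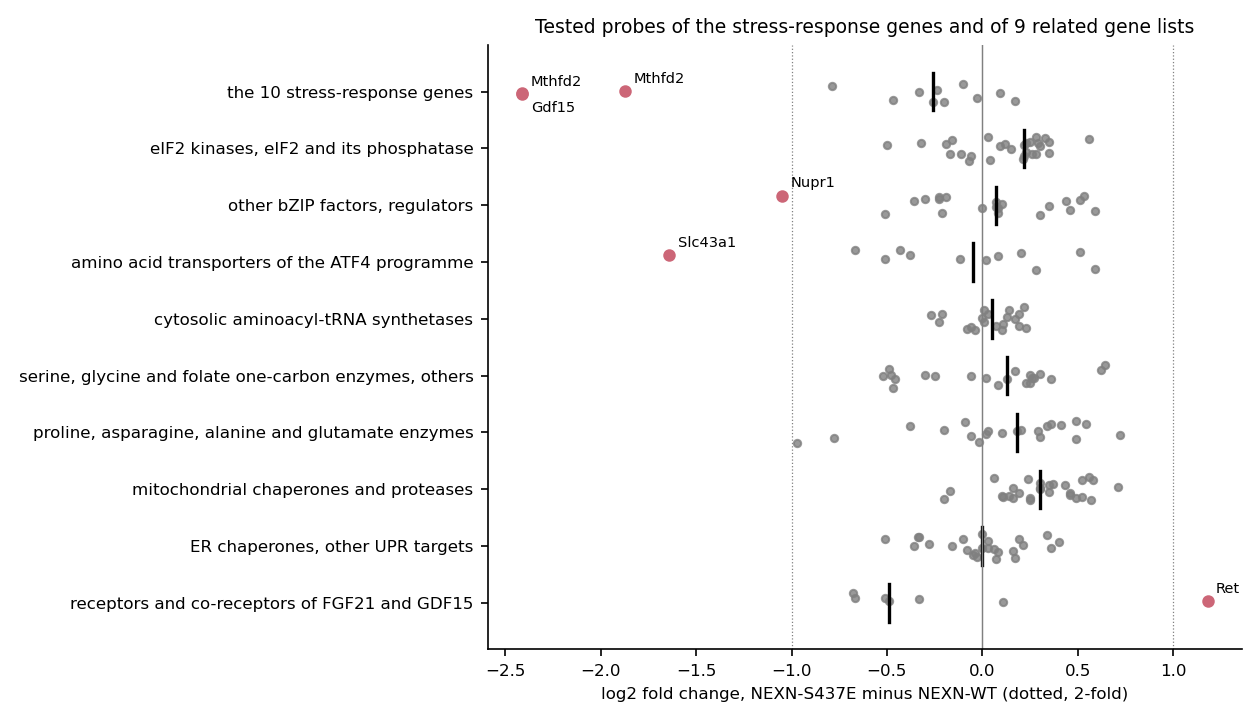
Differences of all tested probes of the 10 stress-response genes and of the 9 related lists (log2 fold change, NEXN-S437E minus NEXN-WT; grey, not called; red, called, with the gene; black bar, median of the list). The calls are few and lie outside the bulk of their lists, and the mitochondrial chaperones and proteases lie mostly above 0, with a median of 0.30.

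Markers of some heart cell types also differed between the groups, and others did not. The levels given here are sums of 1 probe per gene, in multiples of the 75th percentile signal. The 8 activated fibroblast markers, with *Postn* among them, were all called lower, and their summed level was 560, 169 and 179 with NEXN-WT and 70.3, 69.4 and 70.8 with NEXN-S437E. NEXN-WT 1, the highest *Gdf15* array, was also the highest here. The 7 T cell markers measured, which include *Cd3d* and *Cd3g*, summed to 3.06, 4.29 and 4.81 with NEXN-WT and 1.72, 1.56 and 1.53 with NEXN-S437E, and 4 of 6 tested genes were called lower. The hypertrophy markers, led by *Nppa*, summed to between 812 and 966 with NEXN-WT and between 400 and 440 with NEXN-S437E, with 3 of 6 genes called lower. The fibroblast markers summed to between 638 and 980 and between 459 and 496, and 3 of 8 genes were called lower.

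The dividing cell markers, of interest because *Mthfd2* is known to be high in proliferating cells, had 0 of 6 tested genes called and a median of -0.36. All 7 of their tested probes were below 0, between -0.65 and -0.24, against 39.7% of all tested probes, and 0 genes had an unadjusted p below 0.05 (limma). They summed to 7.80, 3.07 and 4.92 with NEXN-WT and 5.14, 3.60 and 3.07 with NEXN-S437E. The macrophage markers summed to between 192 and 254 with NEXN-WT and between 225 and 239 with NEXN-S437E, with 0 of 8 genes called. These sums overlapped between the groups. The cardiomyocyte markers, all 10 of them well above background on at least 1 array, had 0 of 10 genes called. They summed to 2560, 3330 and 3370 with NEXN-WT, lowest on NEXN-WT 1, and to between 3960 and 4050 with NEXN-S437E, without overlap. In RNA of whole myocardium, fewer cells of a type and less RNA per cell cannot be told apart, and the part of any of these cells in the *Mthfd2* and *Gdf15* differences was not tested.

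**Figure D5:**
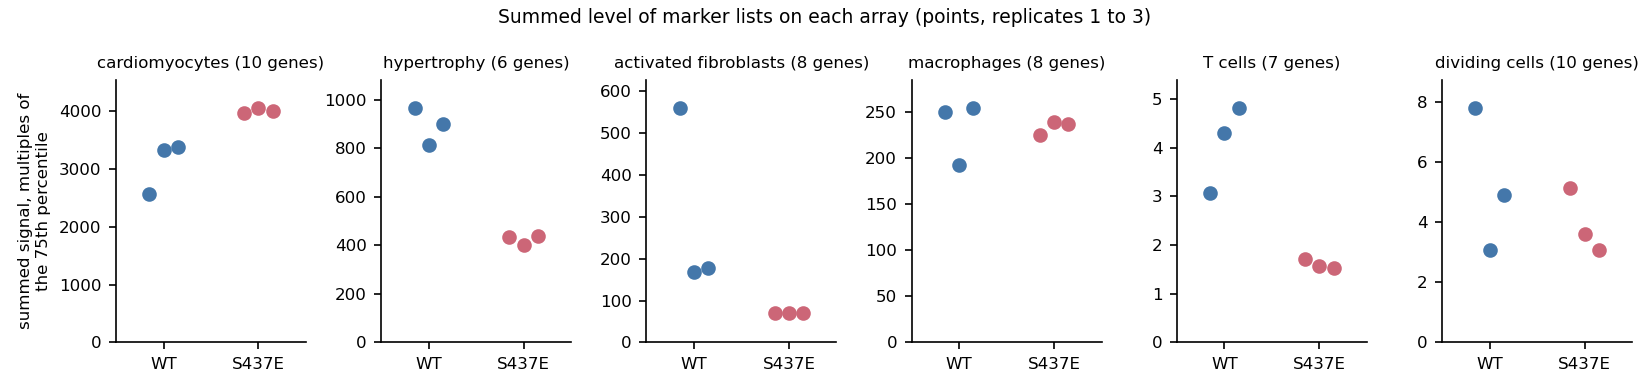
Summed level of 6 marker lists on each array (linear scale, multiples of the 75th percentile signal; blue, NEXN-WT; red, NEXN-S437E). The activated fibroblast, T cell and hypertrophy sums are lower on all 3 NEXN-S437E arrays, the cardiomyocyte sum is higher, and the macrophage and dividing cell sums overlap. NEXN-WT 1 has the highest activated fibroblast sum, 560.

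As a whole, NEXN-WT 1 stood apart from the other arrays. Over all tested probes its mean absolute log2 difference from the other two NEXN-WT arrays was 0.383 and 0.439, against 0.248 between NEXN-WT 2 and 3 and between 0.190 and 0.296 among the NEXN-S437E arrays. Without it, the same 3 stress-response probes were called, and *Slc43a1* was the only pathway gene called. Between 41.95% and 47.81% of spots were well above background on each array. *Clk4*, deleted in the cardiomyocytes of both groups, differed by 0.13 on its tested probe (adjusted p = 0.724), and the *Nexn* probes by 0.01 and 0.13 (adjusted p = 0.984 and adjusted p = 0.749). The sign of each *Nexn* difference turned under some alternatives. As both groups carry the deletion and a NEXN vector, these probes do not check which group an array belongs to.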

How the data were processed

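Total RNA of 6 hearts was labelled with Cy3 and hybridised to 1 array each. The authors scanned the arrays and used Agilent Feature Extraction 10.7.1.1, and deposited for each array processed signals, which are background-subtracted intensities on a linear scale. They also deposited these intensities per probe for the whole series, beside normalized log2 values whose columns have identical distributions. The normalization is not given in the sources used here.

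Here, control and outlier spots were left out, log2 processed signals were centred on the 75th percentile of each array, and replicate spots of 1 probe were combined as their mean. A probe was tested where a group had all 3 arrays well above background, with limma 3.58.1 (R 4.3.3, data.table version 1.17.8; lmFit and eBayes, two-sided, Benjamini-Hochberg over all tested probes). All 6 arrays entered each fit unless an array is said to be left out. The test was checked on simulated data. Between 41.95% and 47.81% of spots were detected. With intensities, precision is set by how many arrays there are and how bright a probe is. An exact permutation test of 3 against 3 cannot give a p below 0.10, so none was run. The study describes the 3 samples of a group as separate mice.

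Samples were grouped by title. Named are all 10 genes with every probe, and in 9 related lists each called gene and the gene of smallest p; marker lists are given by counts and sums. The genes, lists and rules were chosen with earlier results of these data known. Alternatives were quantile normalization, normexp (offset 50), the percentile over detected probes, the deposited values, other filters, outlier spots kept, the methods' t-test, replicate and slide row blocks, an intensity trend, each array left out, 1 probe per gene, a 1.5-fold threshold, and, added after seeing the data, dim arrays at the background limit. Columns of gene annotation named the probes, and promoter windows came from RefSeq (GRCm38.p6). Figures were drawn with Python 3.11.15, matplotlib 3.10.9, pandas 2.3.3 and numpy 2.4.6.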

Additional observations from a re-analysis of the deposited data

How the results depend on the processing

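The probes of *Mthfd2* and *Gdf15* were called under most alternatives, and no direction of *Mthfd2*, *Gdf15*, *Phgdh*, *Asns*, *Trib3* or *Psat1* was reversed. The number of member probes called, 3 as reported, was 1 with normexp background correction and 1 with the filter on all 6 arrays (which leaves out both *Mthfd2* probes), and 3 with every array left out in turn. The median of the member probes stayed between -0.39 and -0.24, and between -0.31 and -0.26 with an array left out. The number of member probes past the adjusted p, 1 as reported, was 0 with normexp, no filter on dim probes, the filter on all 6 arrays, the methods' t-test, the replicate block and the slide row block, and between 0 and 1 with an array left out. It was 0 without NEXN-WT 2, NEXN-S437E 2 or NEXN-S437E 3, where the adjusted p of A_55_P2745905 was 0.0833, 0.103 and 0.0829 (0.0162 to 0.317 over its alternatives), and without NEXN-S437E 1 the other *Mthfd2* probe passed (adjusted p = 0.0311) in its place. In the fits with 0, between 3 and 8 member probes of 11, 13 or 17 tested were lower at an unadjusted p below 0.05. The share of all tested probes lower by that rule was between 2.8% and 6.86% in these fits. The methods' t-test called the same 2 genes at the study's thresholds, and after Benjamini-Hochberg 0 of all tested probes.

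The number of other pathway genes called, 3 as reported, was 1 with normexp, 8 with no filter, 12 at 1.5-fold, and between 1 and 4 with an array left out, lowest without NEXN-WT 1. Over all tested probes, 416 of 581 calls were lower as reported, against 158 of 183 with normexp and 632 of 2250 with no filter. Near 0 the sign turned for *Atf4* A_55_P1979728 (0.09 with the slide row block; -0.10 to 0.07 with an array left out), *Atf5* A_51_P269216 (-0.20 to 0.00 with an array left out), *Ddit3* A_55_P2713585 (-0.05 to 0.30 with an array left out) and *Pycr1* (0.01 with normexp). It also turned for *Nexn* A_52_P367520 (-0.10 with quantile normalization and with the deposited values, -0.17 with normexp, -0.06 with the percentile over detected probes, -0.30 with the slide row block, -0.19 to 0.19 with an array left out) and *Nexn* A_55_P2745249 (-0.02 with normexp and with the slide row block, -0.06 to 0.25 with an array left out). Beyond the construction of each alternative, the causes were not tested.

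Replicate numbers did not pair the arrays: deviations from the group means correlated at -0.154, -0.028 and -0.175 between same-numbered arrays. With the replicate block, 3 member probes were called, *Mthfd2* A_55_P2745905 had an adjusted p of 0.0619, and 51 probes in all passed the adjusted p against 39 without it. Signal over background limits *Mthfd2*, *Slc43a1* and *Pycr1*, which were at or near background with NEXN-S437E, and 4 of the 17 probes could not be tested. With dim arrays set to the background limit, an alternative added after seeing the data, the *Mthfd2* probes differed by -1.72 and -1.74.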

Other observations

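The remaining marker lists gave few calls. Of 3 tested B cell genes 1 was called lower, with a summed level of between 1.09 and 1.31 with NEXN-WT and between 0.683 and 0.705 with NEXN-S437E. Endothelial markers had 0 of 6 genes called and a median of 0.03, smooth muscle and pericyte markers 0 of 6 and -0.23, neutrophil markers 0 of 2 and 0.13, and adipocyte markers 0 of 1 and 0.46. The erythrocyte markers summed to 374 in NEXN-S437E 1, against between 34.8 and 134 in the other arrays, with 0 of 3 genes called. The neutrophil markers were also highest there, at 4.83 against between 0.923 and 2.12. No call in the stress-response genes rests on NEXN-S437E 1, since the same 3 probes were called without it.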
